A study of Homo sapiens with 6 samples.

Results

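The FOS, JUN and ATF3 genes, EGR1 and MYC encode transcription factors of the immediate-early class, and their RNA was compared here between A549 cells with and without knockdown of CEP20. The 10 genes (FOS, FOSB, FOSL1, FOSL2, JUN, JUNB, JUND, ATF3, EGR1 and MYC) were taken by symbol from a table of 60624 Ensembl genes, and each was found once. A549 is a long-established cell line from a human adenocarcinoma of the lung. The siCEP20 samples (n = 3) were A549 cells transfected with small interfering RNA (siRNA) against CEP20, which encodes a protein of centrioles and centriolar satellites. The siCTR samples (n = 3) were A549 cells that received a control siRNA. The transfection lasted 3 days in both groups per the labels, 1 of whose fields calls it a plasmid transfection. The methods describe a pair of siRNAs against CEP20, and the labels do not say which was used. The labels also do not say whether the 3 samples of a group came from separate cultures, so that p-values measure the spread between these samples, which may be technical.

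Immediate-early genes are switched on within minutes of a growth factor, serum or stress signal, without the need for new protein synthesis, and their RNAs are mostly short-lived. FOS and JUN proteins pair through leucine zippers to form AP-1, in which JUN proteins can bind DNA as dimers among themselves and FOS proteins need a partner. EGR1 binds GC-rich sites through zinc fingers, MYC acts with its partner MAX on E-boxes, and all of them are studied in lung cancer as regulators of growth, adhesion and invasion.

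Expression was deposited as TPM, a unit that corrects for the length of transcripts and for the total of each library, so that levels of different genes can be compared on this scale but sequencing depth is unknown. Between 14429 and 14987 genes reached 1 TPM in a library. Differences were tested with limma on log2(TPM + 1) for the 14778 genes whose mean reached 1 TPM, and all 10 members were among them. In bulk samples, a change in the number of RNA-producing cells of a kind and a change in RNA per cell cannot be told apart. CEP20, the target of the siRNA, had 29.2, 30.5 and 35.1 TPM in siCTR samples against 16.2, 15.3 and 17.3 TPM after knockdown. The middle value of the 14778 log2 fold changes (siCEP20 minus siCTR) was 0.13 and became -0.0052 after median-of-ratios scaling, which sets the libraries to a common median, so each change below is to be read against that shift. The mitochondrial pseudogene MTATP8P1 took 5.13% of all TPM in siCEP20 replicate 1, where the top gene of the other libraries took between 2.29% and 2.88%. MTATP8P1 was also the top gene of siCTR replicate 1 (2.39%), while FTH1 was the top gene of replicates 2 and 3 in both groups.

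The cells carried epithelial RNA, with KRT8 between 1535 and 1673 TPM in siCTR samples. In the epithelial list, 9 of 10 genes were higher in siCEP20 samples (limma, adjusted p under 0.05 by Benjamini-Hochberg), against 30.2% of all tested genes. After median-of-ratios scaling 6 of the 10 were higher, against 19.7% of all tested genes. The 9 include CDH2, the cadherin that marks mesenchymal cells (log2 fold change 0.62, adjusted p = 0.00146). Of 9 alveolar markers 2 were tested. ABCA3 was between 16.7 and 20.7 TPM in every library (log2 fold change 0.23, adjusted p = 0.0303), a call lost under each rescaling and in each fit without 1 library. NAPSA was between 0.611 and 2.20 TPM (log2 fold change -0.53, limma adjusted p = 0.0796). It was lower past the threshold with median-of-ratios scaling (limma adjusted p = 0.0486), quantile normalization (0.0413) and without siCEP20 replicate 2 (0.037). It did not pass after the length and GC correction (0.0829). NKX2-1, SFTPB and SLC34A2 were under 0.05 TPM in every library, as were the defining markers of other cell types such as PTPRC, CD3E and DCN. None of the 7 endothelial markers reached a mean of 1 TPM. Of the 10 leukocyte markers, CD68 was higher (log2 fold change 0.79, adjusted p = 0.0161, which became 0.0587 without siCTR replicate 1 and 0.0877 with no filter on low TPM). CD14 did not pass the test, and the summed list ran from 25.7 to 35.9 TPM in siCTR samples and from 35.9 to 56.1 TPM in siCEP20 samples. Of the 8 fibroblast markers, ACTA2 (log2 fold change 1.52) and COL1A1 (1.61) rose while the others stayed under a mean of 1 TPM, and the summed list went from between 26.8 and 30.9 TPM to between 84.3 and 91.3 TPM. The part of these changes in the results below was not tested.

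To show what the promoters of the members hold, the window from 250 bases before to 50 bases after the RefSeq start site was searched for the binding motifs of the factors themselves and of their upstream regulators. RefSeq promoters (GRCh38.p14) were matched for 8 of the 10 members, with 2 windows for ATF3, and FOSL1 and MYC were not matched. The sequences below run 5′ to 3′ on the strand of the gene and stop at the base before the start site or earlier, except for FOSL2, and the capitals mark the motif matches named after them. Those other than FOSL2 are shown because they hold the serum response, cAMP response or TATA motifs for which these genes are textbook examples. FOSL2 is shown for its AP-1 motif.

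EGR1: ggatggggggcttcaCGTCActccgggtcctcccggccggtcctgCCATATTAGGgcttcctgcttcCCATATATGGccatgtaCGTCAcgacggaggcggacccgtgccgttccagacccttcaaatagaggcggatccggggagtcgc
FOS: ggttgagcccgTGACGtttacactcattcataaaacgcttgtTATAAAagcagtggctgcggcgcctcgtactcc
FOSB: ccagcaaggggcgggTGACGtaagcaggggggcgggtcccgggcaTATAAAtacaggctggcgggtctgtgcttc
JUNB: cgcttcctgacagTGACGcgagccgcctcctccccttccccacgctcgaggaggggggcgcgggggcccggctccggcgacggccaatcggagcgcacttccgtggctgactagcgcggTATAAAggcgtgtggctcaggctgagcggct
JUN: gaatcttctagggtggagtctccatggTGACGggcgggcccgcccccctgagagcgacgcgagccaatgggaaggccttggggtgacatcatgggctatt
JUND: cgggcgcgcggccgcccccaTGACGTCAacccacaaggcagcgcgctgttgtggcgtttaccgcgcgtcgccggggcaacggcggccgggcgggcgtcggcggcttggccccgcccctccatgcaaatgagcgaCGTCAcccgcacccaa
FOSL2: tcgtgccattgtagTGACTCAtctcgggca

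The EGR1 stretch (chr5:138465329-138465478, plus strand) held 2 CArG boxes, the motif bound by serum response factor (SRF), starting 105 and 83 bases before the start. Of 35116 promoters of this length, 1.29% held a CArG box on either strand, and EGR1 was the 1 member with it inside the window. Sites farther upstream were not searched, so the absence of a match does not show that FOS or another member lacks a CArG box. TGACG, the core of the cAMP response element bound by CREB and ATF proteins, was found on either strand in 7 of the 8 members, against 24.6% of all promoters. It is marked in EGR1, where it lies on the opposite strand, and in FOS (chr14:75278753-75278827, plus strand), FOSB (chr19:45467921-45467995, plus strand), JUNB (chr19:12791336-12791485, plus strand) and JUN (chr1:58784098-58784197, minus strand). JUND (chr19:18281693-18281842, minus strand) held the full palindrome TGACGTCA, which contains TGACG on both strands, and 1.85% of all promoters did. A further TGACG on the opposite strand, 86 bases before the start of JUND, is also marked. TATAAA on the sense strand was found in 4 of the 8 members and in 7.33% of all promoters, and it started 33, 30, 31 and 230 bases before the start of FOS, FOSB, JUNB and ATF3. The AP-1 motif TGANTCA was found in FOSL2 (chr2:28392848-28392877, plus strand), from base 5 of the transcript, and in 7.71% of all promoters. Only this form was searched, so longer variants, such as the unmarked tgacatca in the JUN stretch, were not counted. The EGR1 motifs GCGTGGGCG and GCGGGGGCG were in 0 of the 8 members (0.795% and 5.07% of all promoters), and the E-box CACGTG was also in 0 (7.26%). These are matches of letters in a window and do not show binding.

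Among the 10 members, 8 had higher TPM in siCEP20 samples at an adjusted p under 0.05 and 0 were lower, where 30.2% of all tested genes were higher and 13.2% lower (limma, Benjamini-Hochberg over all tested genes). With the fold change thresholds of the study added (over 1.5 or under 0.67), 7 members were called higher and 0 lower, where 11.2% of all tested genes were called higher and 4.61% lower. The 7 were JUN, JUND, FOS, MYC, EGR1, JUNB and FOSL2. In 9 members every siCEP20 value lay above every siCTR value, as in 38.4% of all tested genes. After median-of-ratios scaling 7 members were higher, against 19.7% of all tested genes (2905 higher and 3219 lower), and 6 passed the fold change threshold as well, against 5.92%. No member had a negative fold change with the TPM as deposited.

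**Figure D1:**
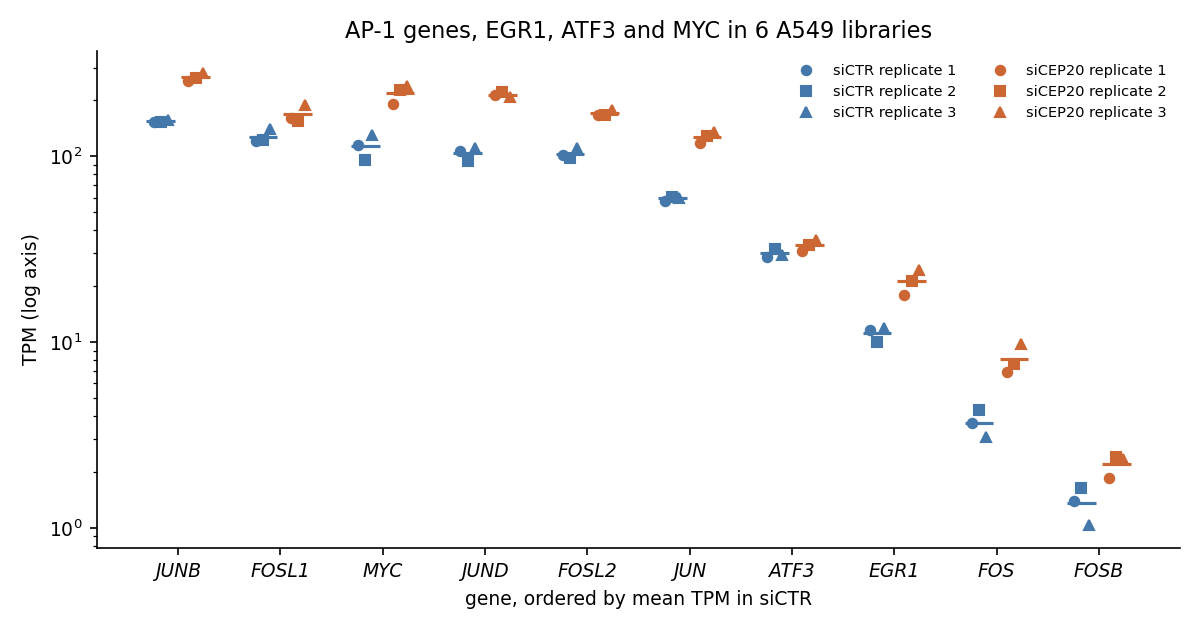
TPM of the 10 genes in the 3 siCTR (blue) and 3 siCEP20 (orange) libraries on a log axis, with a line at each group's mean and genes ordered by their siCTR mean. The groups are apart in 9 genes and overlap in ATF3, and levels span from about 1 TPM (FOSB) to 279.8 TPM (JUNB in a siCEP20 sample).

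The 3 JUN genes had the smallest adjusted p-values of the members. JUN (ENSG00000177606, chromosome 1 from 58776845 to 58784048), the founding AP-1 subunit and a target of the JNK kinases, was at 57.8, 60.4 and 59.9 TPM in the siCTR group and at 118, 129 and 135 TPM in siCEP20 samples. All siCEP20 values were thus near the double of the tightly grouped siCTR values, and the mean rose 2.15-fold (log2 fold change 1.09 ± 0.0651 as standard error, limma adjusted p = 3.53e-05). Counted from the highest, this log2 fold change ranked 204 of 14778.

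JUND (ENSG00000130522, chromosome 19 from 18281622 back to 18279694), which encodes the JUN protein known for steady expression and for restraining growth, was at 107, 94.2 and 111 TPM in the siCTR group and at 214, 221 and 208 TPM in siCEP20 samples. The groups were well apart, and the mean rose 2.06-fold (log2 fold change 1.04, standard error 0.0701, adjusted p = 5.03e-05). JUNB (ENSG00000171223, chromosome 19 from 12791486 to 12793315), a weaker activator than JUN that can oppose it, was at 153, 154 and 158 TPM in the siCTR group and at 255, 265 and 279.8 TPM in siCEP20 samples. It was the most abundant member in both groups and rose 1.72-fold (log2 fold change 0.78, standard error 0.0538, adjusted p = 5.22e-05). JUNB overlaps HOOK2 on the opposite strand, which was at 18.5 ± 2.06 TPM in siCTR and 16.7 ± 0.211 TPM in siCEP20 samples (SD, n = 3 each; adjusted p = 0.266 from limma). HOOK2 was lower past the threshold under the 3 rescalings, with adjusted p = 0.0311 for median-of-ratios, 0.0327 for quantile and 0.0483 for length and GC. The JUN genes have a canonical transcript of 1 exon, so their RNA needs no splicing. As a group, the 241 tested protein-coding genes with 1 exon had a median log2 fold change of 0.15, close to the 0.14 of all 12269 tested protein-coding genes.

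The FOS genes were less uniform. FOSL2 (ENSG00000075426, chromosome 2 from 28392448 to 28417317), which encodes the FOS-related protein FRA2, was at 101, 97.5 and 111 TPM in the siCTR group and at 167, 166 and 177 TPM in siCEP20 samples. Its mean rose 1.65-fold (log2 fold change 0.72, standard error 0.0648, adjusted p = 0.000134), and the fold fell just short of the 1.5 threshold after median-of-ratios scaling (log2 fold change 0.56). FOSL1 (ENSG00000175592, chromosome 11 from 65892049 to 65900573), which encodes FRA1, an AP-1 subunit tied to invasion of carcinoma cells, was at 121, 122 and 140.1 TPM in the siCTR group and at 162, 156 and 189 TPM in siCEP20 samples. Both groups had their highest value in replicate 3, the groups did not overlap, and the mean was 1.32-fold higher (log2 fold change 0.40, standard error 0.0896, adjusted p = 0.00838). With median-of-ratios scaling the difference of FOSL1 no longer passed (log2 fold change 0.24, adjusted p = 0.0578 from limma).

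FOS (ENSG00000170345, chromosome 14 from 75278826 to 75282230), the classic immediate-early gene, was much less abundant than its relatives. It was at 3.65, 4.28 and 3.08 TPM in the siCTR group and at 6.92, 7.60 and 9.78 TPM in siCEP20 samples, and the groups did not overlap. The mean was 2.21-fold higher, the largest ratio of means among the members (log2 fold change 0.96, standard error 0.15, adjusted p = 0.00175), and the log2 fold change understates the change of such low values. FOSB (ENSG00000125740, chromosome 19 from 45467995 to 45475179) was lower still, with 1.40, 1.64 and 1.03 TPM in the siCTR group against 1.84, 2.41 and 2.35 TPM in the siCEP20 group. Its values did not overlap between groups, but the difference did not pass the test (log2 fold change 0.45, standard error 0.17, adjusted p = 0.0659). FOSB overlaps ERCC1 on the opposite strand, a DNA repair gene at 210.4 ± 1.63 TPM in siCTR and 193 ± 8.08 TPM in siCEP20 samples (SD, n = 3 each; limma adjusted p = 0.0804, and between 0.00214 and 0.0202 under the 3 rescalings). The library protocol keeps strand, but whether strand was used in the quantification is not given in the sources used here, so that reads of ERCC1 counted for FOSB were not tested.

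EGR1 (ENSG00000120738, chromosome 5 from 138465479 to 138469303), a zinc finger factor with SRF sites in its promoter (the CArG boxes above), was at 11.5, 9.98 and 12.0 TPM in siCTR samples. In siCEP20 samples it was at 18.01, 21.4 and 24.5 TPM, every value above those of the siCTR samples, with a wider spread. The mean rose 1.91-fold (log2 fold change 0.87, standard error 0.12, adjusted p = 0.000965).

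MYC (ENSG00000136997, on chromosome 8), which encodes a basic helix-loop-helix factor that drives growth and ribosome production, was at 115, 95.7 and 131 TPM in the siCTR group and at 191, 226 and 239 TPM in siCEP20 samples. The groups were apart although both had a spread over 10% of their mean, at 113.9 ± 17.7 and 219 ± 24.6 TPM (SD, n = 3 each). The mean rose 1.92-fold (log2 fold change 0.94, standard error 0.12, adjusted p = 0.000667).

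ATF3 (ENSG00000162772, chromosome 1 from 212565334 to 212620777), a stress-induced factor that can pair with JUN proteins, stood apart from the other members. It was at 28.7, 31.9 and 29.5 TPM in the siCTR group and at 31.1, 33.5 and 35.6 TPM in siCEP20 samples, and the groups overlapped. The difference (0.15 on the log2 scale, standard error 0.0782, adjusted p = 0.16) was close to the median of all tested genes, and it was -0.0040 with median-of-ratios scaling (adjusted p = 0.968 from limma).

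**Figure D2:**
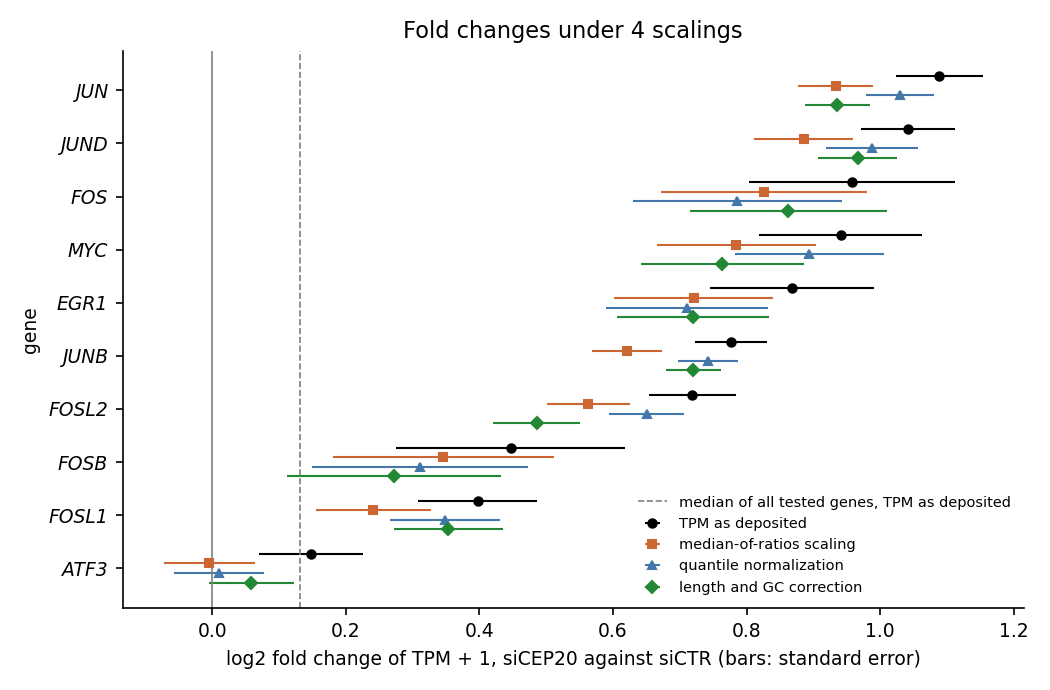
Log2 fold change of TPM + 1 with its standard error for each gene, with the TPM as deposited and under 3 rescalings. The black points of 9 genes lie to the right of the dashed median of all tested genes by more than their standard error, and ATF3 lies on it.

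For each gene by itself, a two-sided exact permutation test returned p = 0.1 for each of the 9 separate members, the smallest value that 3 samples against 3 allow, and p = 0.2 for ATF3. The median spread between replicates was like that of other genes, while single members differed. Their SD of log2(TPM + 1) ran from 0.022 (JUNB in siCTR samples) to 0.231 (FOS in siCEP20 samples). The median SD of log2(TPM + 1) over the members was 0.118 in siCTR and 0.120 in siCEP20 samples, and over all tested genes 0.122 and 0.106.

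On the TPM scale the siCTR samples ranked JUNB first, followed by FOSL1, MYC, JUND, FOSL2, JUN, ATF3, EGR1, FOS and FOSB. FOSL1, MYC, JUND and FOSL2 each overlapped the next in this order in their range over the 3 samples, except that FOSL2 was apart from JUN. In siCEP20 samples the order was JUNB, MYC, JUND, FOSL2, FOSL1, JUN, ATF3, EGR1, FOS and FOSB, and MYC with JUND and FOSL2 with FOSL1 were the neighbours whose ranges overlapped. FOSL1 thus moved from place 2 to place 5, and MYC, JUND and FOSL2 kept their order among themselves.

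Summed over the 3 JUN genes, TPM went from 318, 309 and 328 in siCTR samples to 587, 616 and 622 in siCEP20 samples. Summed over the 4 FOS genes, it went from 227, 226 and 255 to 338, 332 and 379. The difference was thus larger for the JUN sum, and the ratio of FOS to JUN sums was 0.715, 0.732 and 0.777 in siCTR samples against 0.575, 0.539 and 0.609 in siCEP20 samples, with no overlap. All 7 genes together were at 554 ± 25.7 TPM in siCTR and 958 ± 39.0 TPM in siCEP20 samples (SD, n = 3 each). Each of these 4 measures had p = 0.1 in a two-sided exact permutation test, the smallest possible, and an adjusted p of 0.122 by Benjamini-Hochberg over the 11 sums, ratios and shares compared.

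For the share of a gene within its family, the exact permutation test could not reach 0.05, since its smallest p is 0.1 here. Within the JUN sum, JUNB gave 48.7% ± 1.01 in siCTR and 43.8% ± 1.03 in siCEP20 samples (SD, n = 3 each), while JUN went from 18.7% ± 0.79 to 20.9% ± 0.75, both without overlap (exact permutation p = 0.1, adjusted p = 0.122). JUND was at 32.6% ± 1.79 and 35.3% ± 1.66, with overlapping values (exact permutation p = 0.3, adjusted p = 0.33). Within the FOS sum, FOSL1 went from 54.1% ± 0.823 to 48.3% ± 1.55 and FOSL2 from 43.7% ± 0.697 to 48.8% ± 1.72, with close means in siCEP20 samples (exact permutation p = 0.1, adjusted p = 0.122 for each). FOS gave 1.57% ± 0.347 and 2.31% ± 0.267 of the FOS sum (exact permutation p = 0.1, adjusted p = 0.122), and FOSB under 1% in every library (exact permutation p = 0.6, adjusted p = 0.6).

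**Figure D3:**
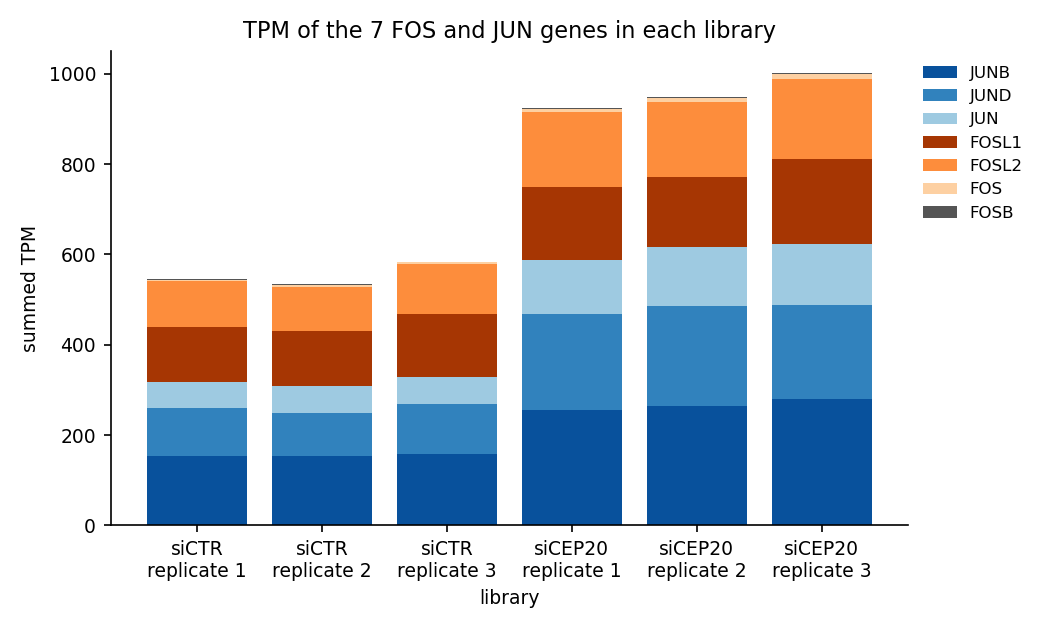
Stacked TPM of the 7 FOS and JUN genes in each library, JUN genes in blue at the bottom and FOSL1, FOSL2, FOS and FOSB above. The 3 siCTR bars end between 534 and 583 TPM and the 3 siCEP20 bars between 925 and 1001 TPM.

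Other immediate-early genes were taken from a list as well. Of 30 genes on a list written from general knowledge, 27 were tested, of which 20 were higher and 2 lower by the same test (30.2% and 13.2% of all tested genes), and the median was 0.66 on the log2 scale, 0.53 above that of all tested genes. RHOB, a small GTPase of the actin and endosome system, rose from 118 ± 8.998 to 469 ± 14.6 TPM (log2 fold change 1.98, adjusted p = 1.31e-05 from limma). CCN1, a secreted matrix protein, rose from 85.4 ± 7.19 to 236 ± 10.98 TPM (log2 fold change 1.46), and the nuclear receptor NR4A1 from 36.9 ± 1.51 to 84.0 ± 4.36 TPM (log2 fold change 1.17). The survival factor MCL1 fell from between 155 and 187 TPM to between 118 and 124 TPM (log2 fold change -0.53, adjusted p = 0.00115), and IER5 fell by 0.49 on the log2 scale. IER2 (log2 fold change 0.15, adjusted p = 0.149) and HES1 (-0.04, adjusted p = 0.755) did not pass. MCL1, IER5, IER2 and HES1 were chosen after their values were seen. With median-of-ratios scaling 17 genes of this list were higher and 2 lower.

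Among 27 other bZIP genes, which encode further partners or competitors of AP-1, 22 were tested, with 7 higher and 6 lower and a median log2 fold change of 0.18. The share higher was close to the 30.2% of all tested genes, and the median close to their 0.13, while the share lower exceeded their 13.2%. NFE2L2, which encodes the antioxidant regulator NRF2, rose from 71.9 ± 5.50 to 110.3 ± 4.83 TPM (log2 fold change 0.61, adjusted p = 0.000417 from limma). NFIL3 (log2 fold change 0.46) and JDP2, a repressor that pairs with JUN (0.65), also rose. After median-of-ratios scaling 5 were higher and 9 lower, against 2905 and 3219 of all 14778 tested genes. The counts were 7 and 8 with quantile normalization and 7 and 10 after the length and GC correction.

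Of the kinases and factors that act upstream of these genes, 23 of 24 were tested. Of these, 11 were higher and 1 lower (30.2% and 13.2% of all tested genes), with a median log2 fold change of 0.27. MRTFA, the actin-regulated coactivator of SRF, rose from 41.8 ± 0.361 to 73.2 ± 2.22 TPM (log2 fold change 0.79, adjusted p = 6.28e-05), and the acetyltransferase CREBBP from 16.6 ± 0.848 to 27.8 ± 1.14 TPM (0.71). SRF itself rose less, from 22.1, 19.8 and 20.8 TPM to 23.9, 26.5 and 25.6 TPM (log2 fold change 0.27, adjusted p = 0.024; chosen after its value was seen). MAP2K4, a kinase that activates JNK, was the gene that fell, from 25.7, 33.5 and 33.7 TPM to 12.3, 12.2 and 9.66 TPM (log2 fold change -1.36, adjusted p = 0.000189). After median-of-ratios scaling 6 were higher and 2 lower.

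Target genes of the factors were listed from general knowledge. Of 32 AP-1 target genes, 25 were tested. Of these, 14 were higher and 7 lower (30.2% and 13.2% of all tested genes), with a median log2 fold change of 0.34. EZR, which links actin to the membrane, rose from 176 ± 4.38 to 328 ± 8.18 TPM (log2 fold change 0.90, adjusted p = 3.07e-05 from limma), and the hyaluronan receptor CD44 from 452 ± 1.499 to 678 ± 19.99 TPM (0.59). The protease PLAU fell from 563 ± 28.6 to 341 ± 28.3 TPM (log2 fold change -0.72, adjusted p = 0.000182). MMP1, MMP3, MMP10 and MMP13, collagenase and stromelysin genes often used as AP-1 readouts, were under 1 TPM in every library. After median-of-ratios scaling 11 AP-1 target genes were higher and 8 lower.

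Of 18 EGR1 target genes, a list that holds EGR1 itself, 16 were tested. Of these, 10 were higher and 2 lower (30.2% and 13.2% of all tested genes), with a median log2 fold change of 0.49. ID3, an inhibitor of helix-loop-helix factors, rose from 429.7 ± 15.6 to 826 ± 26.1 TPM (log2 fold change 0.94, adjusted p = 2.65e-05) and the growth factor TGFB1 from 165 ± 7.80 to 273 ± 23.5 TPM (0.72), while the death receptor TNFRSF10B fell from 412 ± 30.3 to 272 ± 7.94 TPM (-0.60). After median-of-ratios scaling 8 were higher and 3 lower. Of the EGR1 corepressors, NAB1 rose from 43.9 ± 3.75 to 85.2 ± 5.06 TPM (log2 fold change 0.94, adjusted p = 0.000103). NAB2, itself a target of EGR1, fell from 19.8 ± 1.86 to 15.8 ± 0.429 TPM (log2 fold change -0.31, adjusted p = 0.0231), a call that 4 of the 6 fits without 1 library lost (adjusted p from 0.0659 to 0.0761). EGR2, EGR3 and EGR4 were listed at or near 0 in every library, and WT1 did not pass (log2 fold change 0.08, adjusted p = 0.693).

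Around MYC, 17 of 18 network genes were tested. Of these, 7 were higher and 1 lower (30.2% and 13.2% of all tested genes), with a median log2 fold change of 0.24. MAX, the partner MYC needs to bind DNA, was at 55.7, 59.5 and 60.7 TPM in the siCTR group and at 50.3, 54.7 and 57.0 TPM in siCEP20 samples (log2 fold change -0.12, adjusted p = 0.206; chosen after its values were seen). The ratio of MYC to MAX TPM was 2.06, 1.61 and 2.16 in siCTR samples and 3.80, 4.14 and 4.19 in siCEP20 samples. MXD1, which competes with MYC for MAX and represses its targets, was the gene that fell, from 7.89 ± 0.991 to 3.41 ± 0.733 TPM (log2 fold change -1.02, adjusted p = 0.00129). PIM1, a kinase that assists MYC, rose from 24.0 ± 1.28 to 36.8 ± 2.25 TPM (log2 fold change 0.60) and MLXIP, of the parallel MLX branch, rose by 0.47 on the log2 scale, which became 0.21 after the length and GC correction (adjusted p = 0.0533). After median-of-ratios scaling 4 were higher and 2 lower.

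Of 50 genes known as activated by MYC, 49 were tested and split. Of these, 12 were higher and 11 lower (30.2% and 13.2% of all tested genes), with a median of 0.05 on the log2 scale. This median is -0.09 once the median of all genes is taken off. The pseudouridine synthase PUS1 fell from 86.5 ± 3.19 to 48.3 ± 5.01 TPM (log2 fold change -0.83, adjusted p = 0.000194). ODC1, the first enzyme of polyamine synthesis and a classic MYC target, fell from 169.9 ± 8.29 to 115 ± 1.25 TPM (-0.55), and the cyclin-dependent kinase CDK4 from 238 ± 4.13 to 178 ± 4.11 TPM (-0.41). Of the genes that were higher, NOLC1 rose from 59.3, 81.6 and 66.4 TPM to 123, 148 and 140 TPM (log2 fold change 0.98, limma adjusted p = 0.000496). NOLC1 was chosen after its values were seen. The split depended on the scale, with 5 higher and 19 lower after median-of-ratios scaling, against 2905 and 3219 of all 14778 tested genes. The counts were 8 and 19 after the length and GC correction and 11 and 11 with quantile normalization. Of 19 genes known as repressed by MYC, 15 were tested. Of these, 9 were higher and 2 lower (30.2% and 13.2% of all tested genes), with a median log2 fold change of 0.27. CLU (log2 fold change 0.67), TSC22D3 (0.89) and CEBPD (0.81) rose, while CDKN1A, the cell cycle inhibitor p21, was at 346 to 352 TPM in siCTR samples and 241 to 251 TPM in siCEP20 samples (log2 fold change -0.49, adjusted p = 0.000158; chosen after its values were seen).

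The pathway in which ATF3 acts as a stress factor, downstream of ATF4 and DDIT3, was mixed. All 16 genes of the list were tested, with 4 higher and 4 lower (30.2% and 13.2% of all tested genes). Their median log2 fold change was -0.0065. PPP1R15A, a phosphatase subunit that also counts as immediate-early, rose from 205 ± 4.58 to 302 ± 14.8 TPM (log2 fold change 0.55, adjusted p = 0.000194 from limma). The ATF4 targets ASNS (log2 fold change -0.59) and CHAC1 (-0.48) fell. After median-of-ratios scaling 2 were higher and 7 lower.

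**Figure D4:**
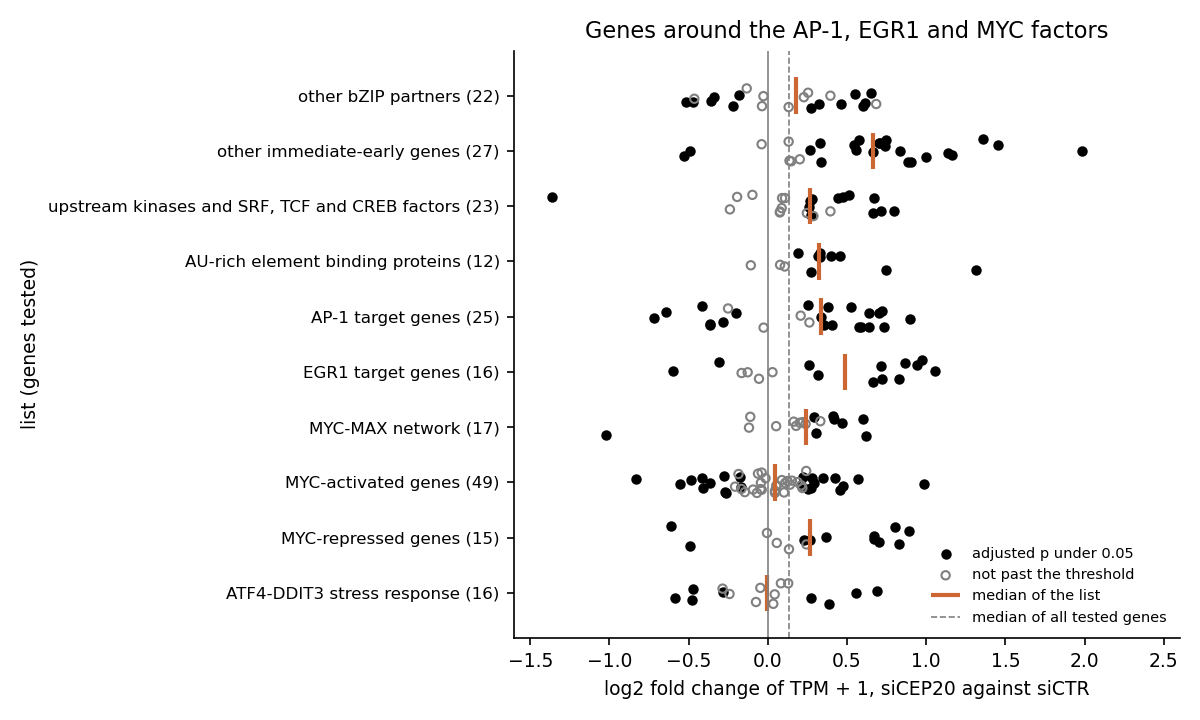
Log2 fold change of TPM + 1 for each tested gene of 10 lists around the factors (filled points: adjusted p under 0.05; orange line: median of the list). The median of the other immediate-early genes, 0.66, lies far to the right of the dashed median of all tested genes, and the MYC-activated genes lie on both sides of it.

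The 3 genes whose pattern over the 6 libraries was most like each of the 7 called members were named by Pearson's r of log2(TPM + 1), as a description, since the points share the contrast between the groups. For JUN they were PIP5K1C, UNC93B1 and EFNB2 (r from 0.9995 to 0.9998), for JUNB PRKCSH, CD44 and TAGLN2 (0.9994 to 0.9999) and for JUND an unnamed gene (ENSG00000275993), GPAA1 and SMC3 (0.999 to 0.9995). For FOSL2 they were EDN1, GLIS3 and SCG2 (0.9987 to 0.9991) and for FOS FAM200B, FBLN5 and PTPRA (0.9959 to 0.997). EGR1 was most like NOC2L, PRCC and MICALL2 (0.9991 to 0.9997) and MYC most like EPHA2, GNA11 and SCMH1 (0.9963 to 0.9979). CD44 is also on the list of AP-1 target genes, and no member was among the 3 closest genes of another.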

How the data were processed

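RNA-seq libraries of 3 siCEP20 and 3 siCTR samples of A549 cells were used. Per the methods, poly(A) RNA was made into stranded paired-end libraries. The authors trimmed reads with fastp 0.20.1, aligned them to hg38 with HISAT2 2.1.0, quantified transcripts with StringTie 2.0 and deposited TPM per Ensembl gene. The annotation release is not given in the sources used here. TPM keeps no depth, so no counting interval was computed and the precision rests on 3 replicates a group.

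Genes were named and placed with GENCODE release 44 (hg38), which matched 60370 of 60624 genes. With limma 3.58.1 in R 4.3.3, log2(TPM + 1) of genes whose mean reached 1 TPM was compared by an eBayes fit with a trend and adjusted by Benjamini-Hochberg. The authors' own DESeq2 test needs counts, which TPM does not hold. On simulated data, 93% of 200 changed genes were recovered and 8 of 14545 unchanged genes were called. These rates belong to that simulation alone. Recovery in data with as many calls as here (4457 genes higher and 1944 lower) was not tested. Exact permutation tests (scipy 1.17.1) were used for sums and shares, and figures were drawn with matplotlib 3.10.9.

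The members and gene lists were chosen with earlier results of these data known. The text names the members, CEP20, the up to 3 genes with the smallest adjusted p of each list and the 3 genes most like each called member, and others where it says so. In the paragraphs on markers and target genes, CDH2 and undetected genes are also named, chosen after their values were seen. The alternatives were a pseudocount of 0.1 TPM, no filter or a mean of at least 5 TPM, median-of-ratios scaling, quantile normalization, a loess correction (span 0.5) for transcript length and GC content (99.7% of tested genes and all 10 members had both), eBayes with no trend, a block for replicate number, each library left out and the study's fold change thresholds.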

Additional observations from a re-analysis of the deposited data

How the results depend on the processing

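The count of members higher in siCEP20 samples was 8 in every fit that left out 1 library, 8 with the replicate block, 7 with median-of-ratios scaling and 9 without the eBayes trend, where FOSB passed (log2 fold change 0.45, adjusted p = 0.0291 from limma). No fit had a member lower past the threshold. With median-of-ratios scaling FOSL1 did not pass (log2 fold change 0.24) and ATF3 was at -0.0040. FOSB was not tested at a mean of at least 5 TPM. Of all tested genes, 2905 were higher and 3219 lower with median-of-ratios scaling, 2934 and 3144 after the length and GC correction, 2938 lower with quantile normalization and 1659 and 682 with the fold change thresholds. With median-of-ratios scaling and the thresholds together, a setting chosen after seeing the data, they were 875 and 1121. The cause was not tested. Of the other genes named, ABCA3 turned to -0.017 after the length and GC correction, and WT1 to -0.066 after it, to -0.049 with median-of-ratios scaling, to -0.095 with quantile normalization and to -0.014 without siCEP20 replicate 1 (range without 1 library -0.014 to 0.22). No clear pairing by replicate number was seen. The deviations of same-numbered samples from their group means had correlations of 0.157, -0.061 and -0.062, and not every sample correlated best with its own number. The block left the count of members at 8. Whether same-numbered samples shared a culture or day cannot be told from these values. Depth is unknown, which limits FOS and FOSB most.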

Other observations

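Proteins that bind AU-rich elements govern the decay of many immediate-early RNAs, and the RNAs that encode them were counted. All 12 genes of the list were tested. By limma 9 of them were higher and 0 lower (adjusted p under 0.05), against 30.2% and 13.2% of all tested genes. The median of 0.32 on the log2 scale lay 0.19 above that of all tested genes. ZFP36L1, which recruits the deadenylation machinery to such RNAs, rose from 133 ± 10.4 to 332 ± 37.1 TPM (log2 fold change 1.31, adjusted p = 5.22e-05), its relative ZFP36 from 38.1 ± 5.94 to 64.1 ± 4.67 TPM (0.74) and KHSRP from 157 ± 5.56 to 197 ± 3.23 TPM (0.33). The count depended on the scale, with 4 higher and 1 lower after median-of-ratios scaling, 5 and 1 after the length and GC correction and 6 and 1 with quantile normalization.

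The pentamer AUUUA, the core of AU-rich elements, occurred at a median of 1.68 per kb in the annotated untranslated 3′ ends of 12087 tested genes. FOS held it at 6.20 per kb, above 95.2% of these genes, JUNB lay above 84.5% of them, and MYC held 3.01 per kb. FOSL1 (1.20 per kb), JUND (1.34 per kb), FOSB (1.38 per kb) and EGR1 (0.818 per kb) lay below the median. Of the members that did not pass the test, ATF3 (2.46 per kb) lay above it and FOSB below.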
